A study of Mus musculus with 6 samples.

Results

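Lung transcript levels of 10 regulators of adipocyte formation and fatty acid metabolism were compared between WT and ISM1-/- mice. The set holds the PPAR receptors Pparg, Ppara and Ppard, the coactivator Ppargc1a, the partner receptors Rxra and Rxrg, the C/EBP factors Cebpa, Cebpb and Cebpd, and Ebf2. These genes were taken by their symbols from a table of 54532 genes, each symbol matched 1 entry, and all 10 passed the filter of 0.5 CPM (counts per 1e6 counted reads) in at least 1 library, which 18689 genes passed. The libraries came from 3 WT C57BL/6J mice that were purchased and from 3 ISM1-/- mice that were bred by the authors' own group on a C57BL/6J background. ISM1 (isthmin-1) is a secreted protein expressed in the lung, and the mice carried no allergen or other treatment at 2 months of age. Whole perfused lungs were used, the RNA was selected for poly-A tails, and libraries that keep strand were prepared, so n = 3 per genotype throughout. Because the genotypes differed in where the animals came from, the effect of genotype and that of breeding colony cannot be told apart.

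PPARs are nuclear receptors that bind fatty acids and their derivatives, pair with an RXR receptor, and sit on DNA as heterodimers at elements made of repeated receptor half-sites. In adipocyte precursors, C/EBPβ and C/EBPδ appear early and switch on PPARγ and C/EBPα, which then hold each other's expression and drive genes of lipid storage, while EBF2 marks precursors of the brown and beige type. In the lung the same factors have further roles, since alveolar macrophages need PPARγ, alveolar type 2 cells use C/EBPα, and C/EBPβ and C/EBPδ belong to the acute inflammatory response. PPARα and PPARδ govern fatty acid oxidation, with PGC-1α, the product of Ppargc1a, as a coactivator.

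Promoters of the regulators were read from RefSeq on GRCm38.p6 to show the DNA that the C/EBP and PPAR proteins would meet there, and the table held 12 promoters for 8 of the 10 genes, each running from 250 bases before a start to 50 bases from it on. Cebpd and Ebf2 were not among them. The core TTGCNNAA of C/EBP sites, searched on both strands, occurred in 2 of the 12, which were the farthest downstream of the 3 Pparg promoters and the downstream one of the 2 Rxrg promoters. Over the whole set of 32817 promoters, 10.8% held this core, so its share among the regulators' promoters (2 of 12) is given as a description. Some of the promoters are printed here on the forward strand, 5′ to 3′, because Pparg shows how different the starts of 1 gene are and because Ppara, Cebpb and Rxrg are described in detail below. Capitals mark the C/EBP core. The most upstream Pparg promoter (chr6:115360894-115361193) had a GC content of 80.3% and 44 CpG dinucleotides, the downstream one (chr6:115421816-115422115) had 40.3% and 2, and the median of all promoters was 52.7% and 7. The downstream start is the kind used for the isoform enriched in adipocytes, and gene counts add up reads from every start of Pparg. The other promoters shown are those of Ppara (chr15:85735526-85735825), Cebpb (chr2:167688665-167688964) and the downstream start of Rxrg (chr1:167618015-167618314).
Pparg upstream: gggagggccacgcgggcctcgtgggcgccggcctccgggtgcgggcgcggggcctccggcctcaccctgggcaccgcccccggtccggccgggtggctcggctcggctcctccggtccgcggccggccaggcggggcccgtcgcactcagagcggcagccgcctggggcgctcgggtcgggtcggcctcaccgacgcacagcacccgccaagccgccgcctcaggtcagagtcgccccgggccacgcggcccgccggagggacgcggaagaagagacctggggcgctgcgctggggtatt
Pparg downstream: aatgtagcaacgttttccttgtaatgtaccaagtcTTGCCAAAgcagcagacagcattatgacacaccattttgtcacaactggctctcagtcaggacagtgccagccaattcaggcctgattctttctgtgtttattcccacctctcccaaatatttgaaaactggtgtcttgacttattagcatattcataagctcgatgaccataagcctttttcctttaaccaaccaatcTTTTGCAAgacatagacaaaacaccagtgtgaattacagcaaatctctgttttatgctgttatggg
Ppara: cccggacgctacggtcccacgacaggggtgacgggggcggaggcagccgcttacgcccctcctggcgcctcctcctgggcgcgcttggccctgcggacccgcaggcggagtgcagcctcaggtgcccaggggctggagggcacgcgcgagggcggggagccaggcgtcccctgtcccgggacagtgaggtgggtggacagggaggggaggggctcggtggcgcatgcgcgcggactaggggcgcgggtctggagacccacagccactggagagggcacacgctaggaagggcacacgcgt
Cebpb: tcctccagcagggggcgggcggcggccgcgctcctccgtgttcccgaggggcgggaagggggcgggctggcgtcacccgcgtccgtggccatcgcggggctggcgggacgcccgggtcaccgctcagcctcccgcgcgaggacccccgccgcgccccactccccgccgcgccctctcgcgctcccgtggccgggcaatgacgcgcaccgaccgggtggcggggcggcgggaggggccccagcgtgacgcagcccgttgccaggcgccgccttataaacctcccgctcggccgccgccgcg
Rxrg downstream: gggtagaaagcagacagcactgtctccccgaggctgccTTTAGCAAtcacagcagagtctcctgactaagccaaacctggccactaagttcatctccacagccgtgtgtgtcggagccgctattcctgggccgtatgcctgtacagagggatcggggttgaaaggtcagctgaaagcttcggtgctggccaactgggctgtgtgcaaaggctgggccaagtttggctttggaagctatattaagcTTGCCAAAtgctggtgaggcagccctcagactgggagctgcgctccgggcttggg

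Counted from the start as position 0, the matches lay at −215 to −208 and −16 to −9 in the downstream Pparg promoter, and at −212 to −205 and −5 to 2 in the downstream Rxrg promoter. The PPAR-RXR element DR1 (a direct repeat of the receptor half-site with a spacer of 1 base) was found in 0 of the 12 promoters and in 0.0396% of all promoters. The palindromic EBF core (0.905% of all promoters), the D-box TTATGTAA of clock output factors (0.935%), the cyclic AMP element TGACGTCA (1.79%) and the E-box CACGTG (7.15%) were each in 0 of the 12 as well. A missing match says only that these letters are not in these windows.

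The total counts were between 37606133 and 42345042 per library, and values are given as CPM scaled by TMM (edgeR's trimmed mean of M-values), which allow a gene to be compared between libraries. Counts for Ism1 itself were 3098, 3215 and 2975 (WT) and 2784, 2508 and 2953 (labelled ISM1-/-), so its transcript was still present there and genotype rests on the labels. WT replicate 1 stood apart from the other WT libraries, with a summed level of 12 cardiomyocyte markers of 1840 CPM against 611 and 725 CPM, and 5 brown adipocyte markers at 26.2 CPM against 8.29 and 12.9 CPM. The markers of its lung cells were present, but its 6 alveolar type 1 markers summed to 3539 CPM against 4680 and 4832 CPM.

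All 10 regulators had a mean that was lower in ISM1-/- than in WT lungs, and 3 of them, Ppara, Cebpb and Cebpd, passed the test (edgeR quasi-likelihood, called where the p adjusted by Benjamini-Hochberg over all genes tested was under 0.1). In the same test 4.72% of all genes were called, 3.34% lower and 1.38% higher. None of the regulators (0 of 10) was called higher, none reached both the adjusted p and a 2-fold difference (0.567% of all genes did), and 6 of 10 had an unadjusted p under 0.05 and were lower, beside 9.3% of all genes (15.8% in either direction). For 6 regulators (Pparg, Ppara, Rxrg, Cebpa, Cebpb and Ebf2) every ISM1-/- library lay below every WT library, an order that 12.3% of all genes showed (21.6% had no overlap in either direction). The median log2 fold change, ISM1-/- over WT, was −0.37 over the 10 regulators and 0.00 over all genes tested. The call count was 3 without ISM1-/- replicate 3, where Ebf2 was called in place of Cebpd. It was 1 without WT replicate 1 (Cebpd) or ISM1-/- replicate 2 (Cebpb), and 0 without WT replicate 2, WT replicate 3 or ISM1-/- replicate 1. The regulators were proposed with results of these data known, so these counts describe them and do not single them out.

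**Figure D1:**
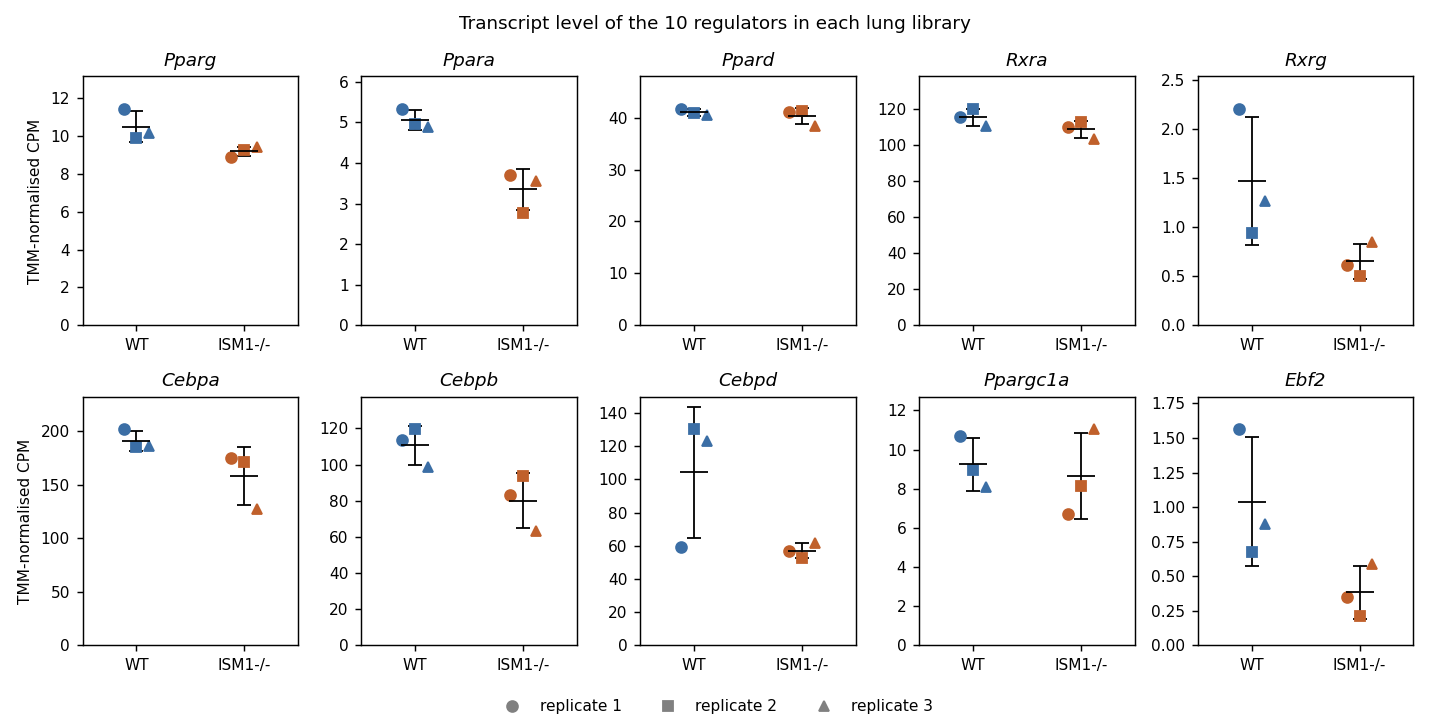
TMM-normalised CPM (vertical axes, each starting at 0) of the 10 regulators in WT (blue) and ISM1-/- (orange) lungs, with 1 point per library and the mean ± SD of 3 libraries in black. The genotypes do not overlap for Pparg, Ppara, Rxrg, Cebpa, Cebpb and Ebf2, and Cebpd has 1 WT library at the level of the ISM1-/- libraries.

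Pparg (ENSMUSG00000000440, chromosome 6, 115360951 to 115490399, forward strand) encodes the receptor on which adipocyte formation depends. It had 11.4, 9.90 and 10.1 CPM in the WT libraries and 8.91, 9.25 and 9.41 CPM in the ISM1-/- libraries. WT replicate 1 was the highest, and the genotypes did not overlap although the gap between the lowest WT and the highest ISM1-/- library was small. The means were 10.5 ± 0.823 and 9.19 ± 0.252 CPM (SD, n = 3), a log2 fold change of −0.19 (SE 0.0968, edgeR adjusted p = 0.384). The 95% interval of the fold ran from 0.754 to 1.02, so that a fold of 1, no difference, lay inside it. Alveolar macrophages are a major lung cell type with Pparg transcript, and of 12 of their markers 0 were called, beside 4.72% of all genes. Their summed levels were 780 to 868 CPM in WT and 723 to 837 CPM in ISM1-/- lungs. Of these markers 9 had a log2 fold change below 0 and 3 above, with a median of −0.13. The part of alveolar macrophages in the level of Pparg was not tested.

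Ppara (ENSMUSG00000022383, chromosome 15, 85734983 to 85802819, forward strand), the receptor of fatty acid oxidation, fell in ISM1-/- lungs. Its counts were 201, 206 and 189 (WT) and 158, 105 and 139 (ISM1-/-), or 5.33, 4.96 and 4.89 CPM against 3.72, 2.77 and 3.56 CPM. The WT libraries were close to one another and all ISM1-/- libraries lay below them, with replicate 2 the lowest. ISM1-/- lungs averaged 66.2% of the WT level, with a log2 fold change of −0.59 (SE 0.148, edgeR adjusted p = 0.0731) and a 95% interval of the fold from 0.527 to 0.834. Of the 6 fits with a library left out, only the one without ISM1-/- replicate 3 called Ppara, while the log2 fold change stayed between −0.67 and −0.47. The adjusted p in edgeR was 0.156, 0.196 and 0.161 without WT replicates 1, 2 and 3, and 0.140 and 0.215 without ISM1-/- replicates 1 and 2.

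Ppara is known as a clock-controlled gene in the liver, and clock genes differed between the genotypes in these lungs. Of 12 clock genes 6 were called higher and 2 lower (Arntl, log2 fold change −0.83, and Npas2, −1.27). Of all genes, 1.38% were called higher and 3.34% lower. The summed level of the 12 clock genes was 1007 to 1140 CPM in WT and 1341 to 1429 CPM in ISM1-/- libraries. The labels give no time of collection, and the part of the clock in the level of Ppara was not tested.

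Ppard (ENSMUSG00000002250, chromosome 17, 28232700 to 28301474, forward strand), the widely expressed member of the family, was at 41.7, 40.9 and 40.4 CPM in WT and 41.1, 41.2 and 38.5 CPM in ISM1-/- lungs. The genotypes overlapped, and the WT libraries were the closest together of all 10 regulators, with a coefficient of variation of 1.51%. Its log2 fold change was −0.03 (SE 0.0611, edgeR adjusted p = 0.892), and the 95% interval of the fold, 0.894 to 1.08, leaves room for only small differences. Without ISM1-/- replicate 3 the log2 fold change was 0.01.

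The coactivator gene Ppargc1a (ENSMUSG00000029167, chromosome 5, 51454250 to 51567726, reverse strand) is known from brown fat, muscle and heart. It had 10.7, 8.96 and 8.07 CPM in WT and 6.73, 8.14 and 11.1 CPM in ISM1-/- lungs. The highest and the lowest library were both ISM1-/-, and the genotypes overlapped fully. The log2 fold change was −0.10 (SE 0.178, edgeR adjusted p = 0.853), with a 95% interval of the fold from 0.708 to 1.23. Its sign turned without WT replicate 1 (0.02) or without ISM1-/- replicate 1 (0.06), so no direction can be given for Ppargc1a.

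Rxra (ENSMUSG00000015846, chromosome 2, 27676440 to 27762957, forward strand) encodes the most abundant RXR partner together with Rxrb. It was at 116, 120 and 110 CPM in WT and 110, 112 and 103 CPM in ISM1-/- lungs, and the ranges overlapped. The log2 fold change was −0.09 (SE 0.0597, edgeR adjusted p = 0.538), with a 95% interval of the fold from 0.858 to 1.03.

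Rxrg (ENSMUSG00000015843, chromosome 1, 167598384 to 167639623, forward strand), the RXR gene of muscle, brain and adipocytes, was scarce. Its counts were 83, 39 and 49 (WT) and 26, 19 and 33 (ISM1-/-), which is 2.20, 0.940 and 1.27 CPM against 0.611, 0.501 and 0.846 CPM. All ISM1-/- libraries lay below the WT libraries, and WT replicate 1 was well above the other two. ISM1-/- lungs averaged 44.4% of the WT level and the log2 fold change was −1.16 (SE 0.356, edgeR adjusted p = 0.137), which misses the threshold. Without WT replicate 1 the log2 fold change was −0.75, and in DESeq2 the adjusted p was 0.0637, so whether Rxrg is called depends on the tool.

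Ebf2 (ENSMUSG00000022053, chromosome 14, 67233292 to 67430918, forward strand), the gene for the brown and beige precursor factor, was the least abundant of the set and followed the same libraries as Rxrg. Only 59, 28 and 34 reads (WT) and 15, 8 and 23 reads (ISM1-/-) were counted, or 1.56, 0.675 and 0.879 CPM against 0.353, 0.211 and 0.590 CPM. The genotypes did not overlap, the highest library was again WT replicate 1 and the lowest again ISM1-/- replicate 2. At 37.0% of the mean WT level in ISM1-/- lungs, it had the largest log2 fold change of the 10 regulators, −1.42 (SE 0.435, edgeR adjusted p = 0.137), and it missed the threshold too. The log2 fold change was −1.004 without WT replicate 1 and −1.85 without ISM1-/- replicate 3, where the adjusted p in edgeR was 0.0733, and DESeq2 gave an adjusted p of 0.0634. Over the 6 libraries the log2 CPM of Rxrg and Ebf2 had a Pearson correlation of 0.983, a description over libraries that differ in depth and in cell markers.

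Levels of white adipocyte markers are given beside Rxrg and Ebf2. Of 13 tested white adipocyte markers 11 were called lower, beside 3.34% of all genes. Their summed level was 348 to 426 CPM in WT and 132 to 240 CPM in ISM1-/- libraries. It was highest in WT replicate 1, as were Rxrg, Ebf2, Pparg, Ppara, Cebpa and Ppard. The lowest library was ISM1-/- replicate 1 for this list and ISM1-/- replicate 2 for Rxrg and Ebf2. No marker of this list was at 0 in any library, and Lep, the gene of leptin and a defining adipocyte marker, had counts of 33, 31 and 37 (WT) and 2, 7 and 13 (ISM1-/-). Lep and Aqp7, both called lower, passed the filter only through WT libraries, and Lep was at 0.047 to 0.333 CPM in ISM1-/- libraries. Of 5 tested brown adipocyte markers 1 was called lower, and their summed level was 8.29 to 26.2 CPM in WT and 6.77 to 8.77 CPM in ISM1-/- lungs. All 5 had a log2 fold change below 0, with a median of −1.13, and 4 had an unadjusted p under 0.05 in edgeR (15.8% of all genes). Ucp1, which defines brown fat, had 232 counts in WT replicate 1 and between 2 and 24 in the other libraries. The 12 cardiomyocyte markers, of which 1 was called lower, summed to 611 to 1840 CPM in WT and 329 to 655 CPM in ISM1-/- libraries. All 12 had a log2 fold change below 0, with a median of −1.07, and all 12 had an unadjusted p under 0.05 in edgeR. The part of these cells in the levels of Rxrg and Ebf2 was not tested, and in whole lung fewer cells of a type and less RNA per cell cannot be told apart.

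**Figure D2:**
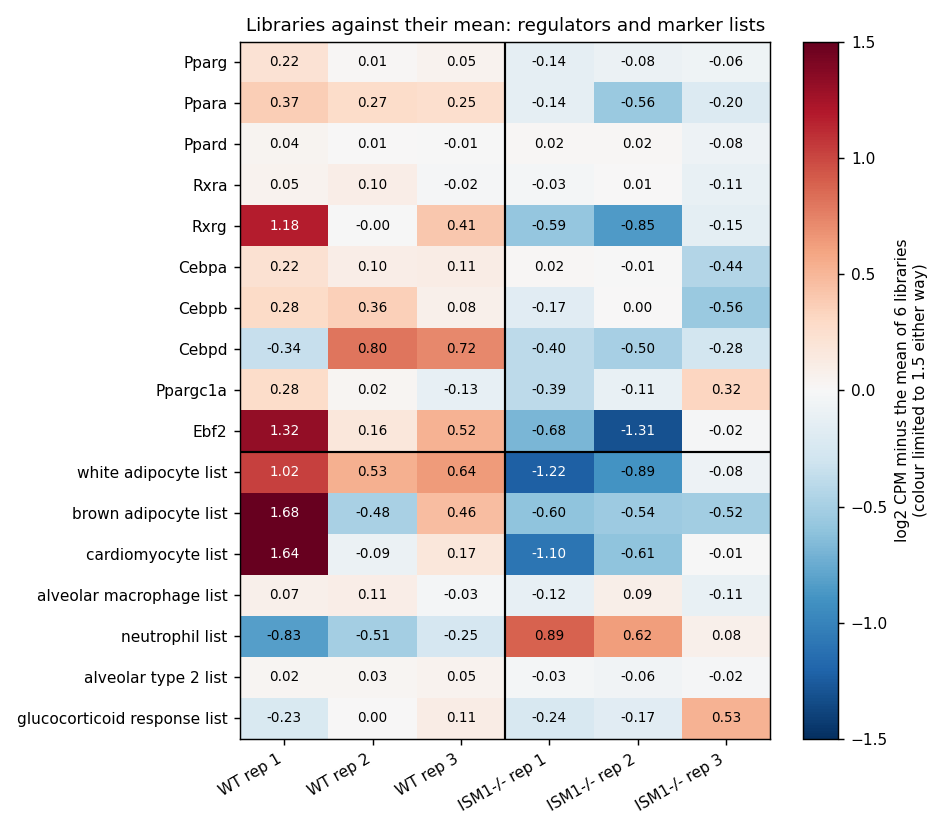
Difference of each library's log2 CPM from the mean of the 6 libraries (colour and printed number) for the 10 regulators above the line and for the mean over the tested genes of 7 marker lists below it, with the WT libraries on the left. Rxrg and Ebf2 have their highest value, 1.18 and 1.32, in WT replicate 1, as the white adipocyte (1.02), brown adipocyte (1.68) and cardiomyocyte (1.64) lists do, whereas Cebpd is at −0.34 there.

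Cebpa (ENSMUSG00000034957, chromosome 7, 35119293 to 35121928, forward strand), which keeps mature adipocytes and also acts in alveolar type 2 cells and myeloid cells, had the highest count level of the set. It had 202, 185 and 186 CPM in WT and 175, 171 and 127 CPM in ISM1-/- lungs. The genotypes did not overlap, and ISM1-/- replicate 3 was far below the other libraries. The log2 fold change was −0.28 (SE 0.109, edgeR adjusted p = 0.249) and −0.14 without ISM1-/- replicate 3. The antisense gene Gm45091 overlaps Cebpa and had a mean of 178 counts, and since the sources do not say whether counting used the strand, a small exchange of reads is possible.

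Cebpb (ENSMUSG00000056501, chromosome 2, 167688915 to 167690418, forward strand), an early adipogenic factor and a mediator of interleukin-6 signalling, fell in ISM1-/- lungs. Counts of 4287, 4963 and 3818 (WT) and 3530, 3548 and 2473 (ISM1-/-) gave 114, 120 and 98.7 CPM against 83.0, 93.5 and 63.4 CPM. The genotypes did not overlap, although WT replicate 3 and ISM1-/- replicate 2 were close, and ISM1-/- replicate 3 was the lowest. The means were 111 ± 10.8 and 80.0 ± 15.3 CPM (SD, n = 3), so that ISM1-/- lungs had 72.3% of the WT level, with a log2 fold change of −0.47 (SE 0.127, edgeR adjusted p = 0.0967) and a 95% interval of the fold from 0.593 to 0.880. Cebpb was called in 2 of the 6 fits that left out a library, those without ISM1-/- replicate 2 or 3. Without the others the adjusted p in edgeR was 0.182 (WT replicate 1), 0.289 (WT replicate 2), 0.119 (WT replicate 3) and 0.217 (ISM1-/- replicate 1). Tmem189 lies across Cebpb on the opposite strand, with a mean of 2185 counts and a log2 fold change of −0.04.

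Cebpd (ENSMUSG00000071637, chromosome 16, 15887286 to 15891031, forward strand), the other early factor and a gene induced by glucocorticoids and interleukin-6, passed the test with overlapping genotypes. It had 59.0, 130 and 123 CPM in WT and 56.9, 52.8 and 61.8 CPM in ISM1-/- lungs. The ISM1-/- libraries were alike, and WT replicate 1 lay among them, at less than 50% of the other WT libraries. The means were 104 ± 39.3 and 57.2 ± 4.47 CPM (SD, n = 3), a log2 fold change of −0.87 (SE 0.235, edgeR adjusted p = 0.0966). Without WT replicate 1 the log2 fold change was −1.15 with an adjusted p of 0.000522 in edgeR, and without any other library the adjusted p was between 0.122 and 0.290 and the call was lost. DESeq2 gave an adjusted p of 0.159. Spidr overlaps Cebpd on the opposite strand, with a mean of 712 counts and a log2 fold change of 0.01.

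Levels of other marker lists are given beside Cebpb and Cebpd. The summed level of 10 glucocorticoid response genes was 644, 996 and 1050 CPM in WT and 709, 712 and 1287 CPM in ISM1-/- libraries, so that WT replicate 1 was low in this list as in Cebpd while ISM1-/- replicate 3 was high in the list only. Of these genes 1 was called higher (Zbtb16) and 1 lower (Mt1). Of 8 tested neutrophil markers, from cells in which C/EBP factors are active, 5 were called higher in ISM1-/- lungs, beside 1.38% of all genes. The summed level of these markers was 53.7 to 70.2 CPM in WT and 83.2 to 145 CPM in ISM1-/- libraries. The 8 alveolar type 2 markers, of which 0 were called, beside 4.72% of all genes, summed to 24103 to 24570 CPM in WT and 23029 to 24036 CPM in ISM1-/- libraries. The part of each in the levels of the C/EBP genes was not tested.

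**Figure D3:**
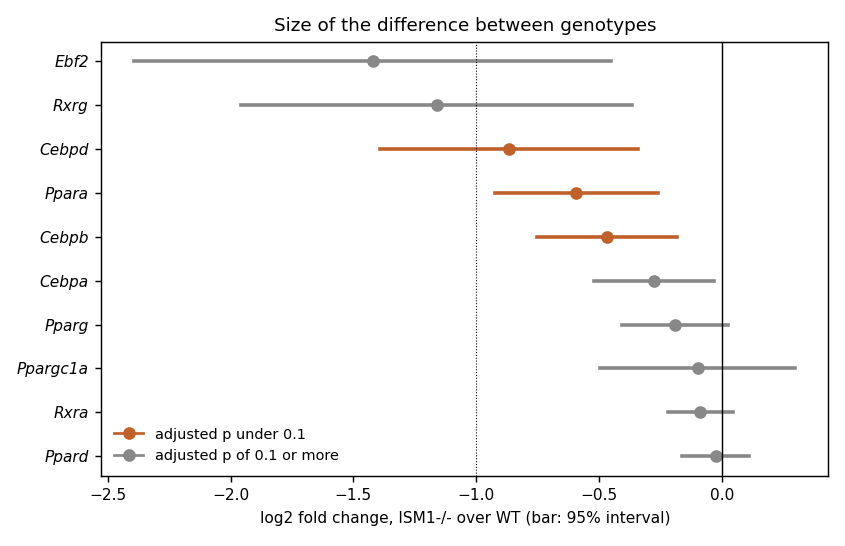
Log2 fold change, ISM1-/- over WT, of each regulator with its 95% interval from edgeR's quasi-likelihood fit, in orange where the adjusted p was under 0.1. All 10 points lie below 0, from −0.03 (Ppard) to −1.42 (Ebf2), and the intervals of Pparg, Ppard, Rxra and Ppargc1a include 0 (solid line), while the dotted line marks a 2-fold reduction.

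Levels of different genes were compared on the deposited FPKM, which divide counts by a gene length. In WT lungs the order was Cebpa (80.0 ± 3.95 FPKM), Cebpb (73.7 ± 7.08), Rxra (51.8 ± 2.09), Cebpd (49.98 ± 18.8), Ppard (24.2 ± 0.371), Pparg (8.998 ± 0.714), Ppara (3.37 ± 0.159), Ppargc1a (3.05 ± 0.445), Rxrg (0.795 ± 0.355) and Ebf2 (0.290 ± 0.130 FPKM, SD, n = 3 for each). Neighbours whose WT libraries overlapped, and which therefore have no settled order, were Cebpa with Cebpb, Rxra with Cebpd, and Ppara with Ppargc1a. In ISM1-/- lungs the order was the same except that Ppargc1a (2.83 ± 0.689 FPKM) stood above Ppara (2.21 ± 0.334 FPKM), and the libraries overlapped for this pair, for Cebpa with Cebpb and for Cebpb with Rxra. Cebpa exceeded 91.1% of all tested genes in its mean FPKM over the 6 libraries, Pparg exceeded 48.4% and Ebf2 2.50%.

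The FPKM used gene lengths other than the length column of the count table. For Ppard the FPKM imply 1696 bases where the table has 7514, for Pparg 1168 against 2953, and for Cebpb both are 1504. Per length of the table, an alternative chosen after seeing the data, the WT order changed only within the overlapping pairs, each of which was swapped. Ratios between libraries do not depend on this length.

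The composition of each family was followed as the share of a member in the summed FPKM of its family. Ppara made up 9.34%, 9.18% and 9.07% of PPAR transcripts in WT and 7.18%, 5.39% and 7.15% in ISM1-/- lungs. The genotypes did not overlap, and the mean share was 9.20% ± 0.135 in WT and 6.57% ± 1.02 in ISM1-/- (SD, n = 3). Ppard made up 66.2% ± 1.24 and 70.2% ± 1.46, also without overlap, and Pparg 24.6% ± 1.13 and 23.3% ± 1.06 with overlap. Both differences without overlap gave p = 0.1 in a two-sided exact permutation test, the lowest value this number of mice can give, and an adjusted p of 0.157 over the 11 shares tested.

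Among RXR transcripts Rxra and Rxrb, the broadly expressed partner, made up nearly all of the sum on the deposited FPKM. Rxra had 51.4% ± 0.783 in WT and 48.8% ± 0.449 in ISM1-/-, Rxrb 47.8% ± 0.506 and 50.8% ± 0.425, and Rxrg 0.787% ± 0.339 and 0.356% ± 0.112 (SD, n = 3), each without overlap between genotypes (exact permutation p = 0.1, adjusted p = 0.157). The shares of a family have a fixed sum, so the lower share of Rxra and the higher share of Rxrb are not separate observations. The CPM of Rxrb overlapped between genotypes (log2 fold change 0.07, edgeR adjusted p = 0.653). Of the C/EBP transcripts Cebpd had 12.1%, 23.1% and 23.1% in WT and 13.5%, 12.3% and 15.9% in ISM1-/- lungs, with overlap. Cebpg, a C/EBP protein without an activation domain, had 19.7% ± 0.963 and 26.2% ± 5.99 (SD, n = 3) without overlap, again at an exact permutation p of 0.1 and an adjusted p of 0.157, while its own CPM did not pass the test (log2 fold change 0.04, edgeR adjusted p = 0.896). Per length of the table the Cebpg share was 8.87% and 12.2%, that of Rxra 55.6% and 53.3%, that of Rxrb 42.8% and 45.9%, and that of Rxrg 1.68% and 0.769% (means of WT and ISM1-/-), so the sizes of the shares depend on the gene length used. The granulocyte factor Cebpe had counts of 2, 1 and 2 (WT) and 8, 4 and 3 (ISM1-/-), too few for the test. The summed FPKM were 36.6 ± 1.22 and 33.7 ± 1.01 for the PPAR genes and 254 ± 17.7 and 197 ± 12.0 for the C/EBP genes (WT and ISM1-/-, SD, n = 3), both lower in every ISM1-/- library than in every WT library (exact permutation p = 0.1). The RXR sums, 101 ± 4.62 and 99.4 ± 5.06 FPKM, overlapped.

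Partners, coactivators and other adipogenic regulators gave few calls. Over all genes tested, edgeR called 3.34% lower and 1.38% higher, and 15.8% had an unadjusted p under 0.05. DESeq2 called 819 of all genes lower and 466 higher. Of 11 tested partner receptors and relatives of the C/EBP and EBF factors 1 was called lower, Rarb, a retinoic acid receptor that also pairs with RXR (9.70 ± 0.980 and 7.27 ± 0.340 CPM, SD, n = 3, log2 fold change −0.42, edgeR adjusted p = 0.0866), and 0 higher. This call of Rarb held in 1 of the 6 fits that left out a library, the one without ISM1-/- replicate 3, and it was lost at the 0.05 threshold. Next by p was Ebf3, with a log2 fold change of −0.86 and an adjusted p of 0.330 in edgeR. Ebf3 passed the filter only through WT replicate 1. The median of this list was −0.03. Of 16 coactivators and corepressors edgeR called 0 and DESeq2 0, with 1 at an unadjusted p under 0.05, namely Ppargc1b, the relative of Ppargc1a (2.81 ± 0.154 and 1.94 ± 0.390 CPM, SD, n = 3, log2 fold change −0.54, edgeR adjusted p = 0.196), and their median was 0.00. Lpin1, a coactivator and phosphatidate phosphatase, had a log2 fold change of −0.18. Of 17 tested other regulators of adipocyte formation edgeR called 0 while DESeq2 called 2 lower and 1 higher, 4 had an unadjusted p under 0.05, and the median was 0.01. The smallest p of that list belonged to Klf5, a C/EBP-induced activator of Pparg (log2 fold change −0.34, edgeR adjusted p = 0.104), and Wnt10b, an inhibitor of adipocyte formation (0.41, adjusted p = 0.107).

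The known targets of the receptors are given next, and a difference between the lists was not tested. Of 19 tested PPARγ targets of adipocytes 11 were called lower (3.34% of all genes), 8 of them at least 2-fold (0.284% of all genes), and 0 higher. Their median log2 fold change was −0.90. Pck1, of glyceroneogenesis, had −2.19, the glycerol channel gene Aqp7 −1.98, the lipid droplet genes Plin1 −1.88, Plin4 −1.06 and Cidec −0.90, the adipokine genes Adipoq −1.72 and Retn −1.39, the fatty acid carrier gene Fabp4 −1.46, the insulin-responsive glucose transporter gene Slc2a4 −1.22, the glycerol 3-phosphate dehydrogenase gene Gpd1 −0.67 and the acyl-CoA synthetase gene Acsl1 −0.34. Adipoq had 14.8, 10.4 and 11.9 CPM in WT and 2.61, 2.16 and 6.51 CPM in ISM1-/- libraries, without overlap. Aqp7, among the 11 called, passed the filter only through WT replicate 1 (1.17 CPM, against 0.132 to 0.491 CPM in the other libraries). With 0.5 CPM required in 3 libraries, 10 of 18 targets were called lower. Of the 19 targets 7 are also in the white adipocyte marker list, and 6 of these were called lower, while 5 of the other 12 were, with median log2 fold changes of −1.46 and −0.33. The other 12 include Cidea, a brown adipocyte marker, so the split does not separate these targets from adipocyte content. Leaving out a library gave between 3 and 15 targets called lower, with 3 without ISM1-/- replicate 2, 4 without ISM1-/- replicate 1, 5 without WT replicate 2, 6 without WT replicate 3 and 7 without WT replicate 1, while the median stayed between −1.09 and −0.66. The study drew attention to lipid genes in these same libraries, so the direction of this list is no independent evidence.

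Of 19 tested PPARα and PPARδ targets of fatty acid oxidation edgeR called 0, with 8 at an unadjusted p under 0.05 (15.8% of all genes), and DESeq2 called 1 lower. The median log2 fold change was −0.06, with 15 of the 19 below 0 and 4 above. Without overlap between genotypes, 5 were lower (12.3% of all genes) and 1 was higher. The smallest p belonged to Cpt2, of mitochondrial fatty acid import (21.0 ± 0.862 and 17.9 ± 0.0912 CPM, SD, n = 3, log2 fold change −0.23, edgeR adjusted p = 0.130), and Plin5, a lipid droplet protein of oxidative tissue (3.92 ± 0.772 and 2.59 ± 0.161 CPM, log2 fold change −0.59, edgeR adjusted p = 0.131). The liver targets Cyp4a10 and Cyp4a14 had 0 counts in all 6 libraries.

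**Figure D4:**
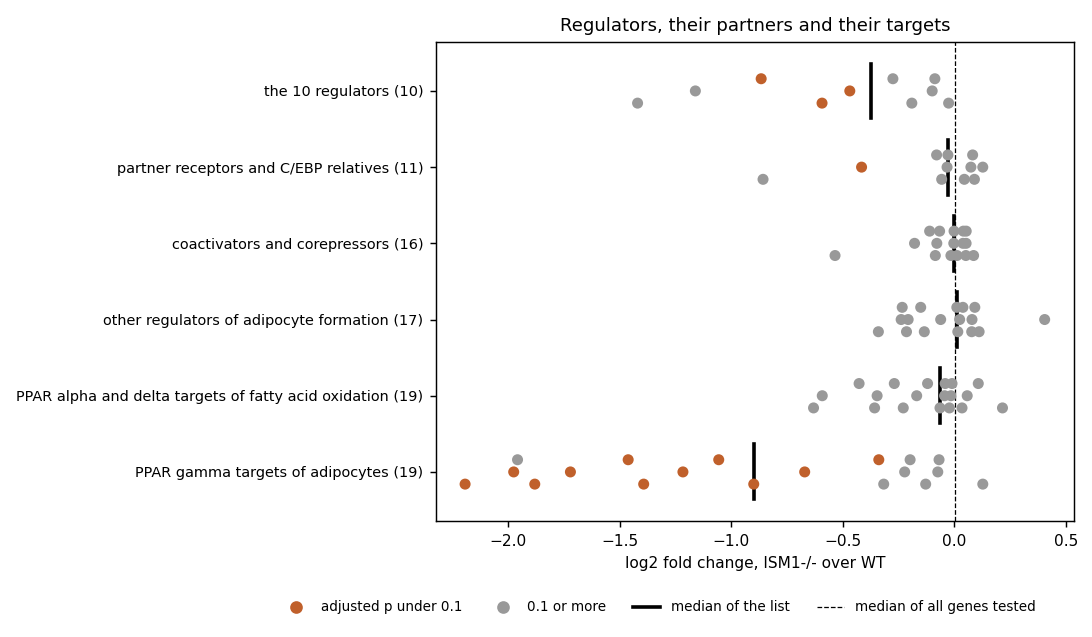
Log2 fold change, ISM1-/- over WT, of every tested gene (points) of the 10 regulators and of 5 lists, named with their number of tested genes, in orange where the adjusted p was under 0.1 and with a black bar at the median of each list. The medians of the partners, coactivators, other regulators and PPARα and PPARδ targets lie between −0.06 and 0.01, those of the regulators and of the PPARγ targets at −0.37 and −0.90.

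For the 3 called regulators the genes with the most similar pattern of log2 CPM over the 6 libraries were sought among the 15875 genes whose mean reached 1 CPM. For Ppara these were Efcab5 (Pearson r = 0.991), Shisal1 (0.991) and Cc2d2a (0.990). For Cebpb they were Zfp777 (0.996), Rps10 (0.995) and Mul1 (0.995), and for Cebpd Slc35a2 (0.991), Klf5 (0.989) and Uqcc2 (0.985). These values are descriptions without a test, over libraries that differ in depth and in cell markers. Picking the 3 highest of 15875 genes over only 6 libraries by itself gives high values. None of these similar genes was called (edgeR adjusted p from 0.104 to 0.540). Between the regulators themselves, Rxra went with Cebpb (0.956), Cebpa with Ppard (0.912) and with Cebpb (0.911), and Pparg with Rxrg (0.953). Ebf2 went with Ppara (0.906) and with Pparg (0.896), and Rxrg with Ppara (0.862), whereas Cebpd had its highest value, 0.619, with Ppara.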

How the data were processed

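RNA-seq of whole perfused lungs of 3 WT and 3 ISM1-/- mice was analysed, 1 library per mouse, grouped by the labels. The authors trimmed reads, aligned them with STAR on GRCm38, and the deposited counts are whole numbers of reads per gene, not normalized. The authors also deposited FPKM, which divide counts by library total and a gene length. CASAVA is named in the submitters' processing notes as well. The counting program and its strand setting are not given in the sources used here.

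The count table was analysed with edgeR 4.0.16 (R 4.3.3). Genes were kept where any 1 library reached 0.5 CPM, scaled by TMM and compared by edgeR's quasi-likelihood test (glmQLFTest, no covariates), with Benjamini-Hochberg adjustment over 18689 genes and calls at an adjusted p under 0.1. CPM are given as mean ± SD over 3 libraries. FPKM were used for levels between genes and family shares, the latter compared by two-sided exact permutation tests. Similar patterns were ranked by Pearson r of log2 CPM with a prior count of 2. The members, lists and tests were chosen with earlier results of these data known. The rule for named genes took all 10 regulators, Ism1, genes that overlap a regulator on the genome, defining cell type markers, every called gene of a pathway list (made up to 2 by the smallest p) and the 3 genes closest in pattern to each called regulator. Clock and glucocorticoid genes, Cebpe, Cebpg and Rxrb are named as members of the marker lists and families, and Cyp4a10 and Cyp4a14 were chosen after their values were seen. Ddit3 was left out because 2 entries share its symbol, and Gyk and Trarg1 matched no entry.

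The depth was 37606133 to 42345042 counts per library. By chi-square, all pairs of libraries differed beyond sampling noise, so none was a copy of another. The chi-square cannot tell separate mice from separate preparations, and counting each library as a replicate rests on the labels. The tests were tried on simulated data first. Alternatives were DESeq2 1.42.0, RLE size factors, other filters on low counts, other thresholds, the replicate number as a block and the omission of each library in turn. Same-numbered libraries come from different mice, and the correlations of their deviations from the genotype means were −0.04, 0.03 and 0.00. Differently numbered libraries gave −0.06 to 0.05, so same-numbered ones were no more alike. A batch shared by number was not tested.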

Additional observations from a re-analysis of the deposited data

How the results depend on the processing

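The number of regulators called lower in ISM1-/- was 3 as reported and 4 with DESeq2, which added Rxrg and Ebf2 and lost Cebpd. The number was 6 without a filter on low counts, 0 under the 0.05 threshold, 0 with a 2-fold minimum, 1 among genes averaging over 2 CPM, and 0 to 3 in the fits that left out 1 library. With the replicate number as a block it was 5, Rxrg and Ebf2 being added, although same-numbered libraries come from different mice. The block also gave 1 higher and 1 lower among the other regulators of adipocyte formation and 0 lower among the partner receptors. DESeq2 gave 2 lower and 1 higher among the other regulators of adipocyte formation and 1 lower among the PPARα and PPARδ targets. Without a filter these were 1, 1 and 3, and with 0.5 CPM in 3 libraries 1 of the other regulators was called lower. At an adjusted p under 0.05 the partner receptors had 0. Over the fits without 1 library, calls lower ran from 0 to 1 for the partners, the coactivators and the PPARα and PPARδ targets, from 0 to 2 for the other regulators (0 to 1 higher) and from 3 to 15 for the PPARγ targets. Over all genes the calls lower ran from 115 to 900 and the calls higher from 35 to 570. These fits have fewer samples, and the cause of a lost call was not tested. Per table length the share differences were −3.43 percentage points for Ppara and −0.913 for Rxrg. Without 1 library the share differences (ISM1-/- minus WT, percentage points) were −2.93 to −2.04 for Ppara, 3.23 to 4.75 for Ppard, −1.84 to −0.680 for Pparg, −3.02 to −2.30 for Rxra, 2.77 to 3.27 for Rxrb, −0.581 to −0.247 for Rxrg, −0.0640 to 3.83 for Cebpa, −4.19 to −0.355 for Cebpb, −9.23 to −3.70 for Cebpd, 0.0234 to 0.0443 for Cebpe and 3.01 to 8.30 for Cebpg. The log2 fold changes kept their sign for 8 of the 10 regulators in every alternative that gave them a value (12 for 6 of them, 11 for Rxrg and Ebf2, which the mean above 2 CPM removed); that of Ppargc1a ran from −0.315 to 0.056 without 1 library (0.021 without WT replicate 1, 0.056 without ISM1-/- replicate 1) and that of Ppard from −0.042 to 0.0077 (0.0077 without ISM1-/- replicate 3). Rxrg and Ebf2 rest on 19 to 83 and 8 to 59 counts per library, which limits their precision.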
